A study of Rattus norvegicus with 30 samples.

Results

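D28 cultured tissues, rat testis explants kept for 28 days in organotypic culture, were compared with fresh testes of 14.5 dpp (days postpartum), the youngest control age that the study set against its cultures. Of the 30 libraries of the series, 5 entered the contrast: 3 of D28 cultured tissues and 2 of 14.5 dpp testis. Another 14.5 dpp testis, marked as an outlier in its label, was listed at 0 for all 17322 genes and was left out. Of these genes, 11517 had a group median of at least 0.5 FPKM (expression scaled to transcript length and to the size of the library) and were tested. Of the genes that the study lists as deregulated in its cultures, 599 were found in the file, all of them among those tested. The description below covers mainly the other 10918, here called the genes outside the study's lists.

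The study looked into what lies behind the arrest of meiosis in organotypic cultures of the prepubertal rat testis. The explants came from Wistar Han rats at 8.5 dpp and were laid at the gas–liquid interphase on agarose, in a medium with serum replacement, retinol and vitamin E. Each cultured library pooled explants from several males, and the necrotic centre of the fragments was cut away before RNA extraction. The 14.5 dpp testes came from other animals, which were neither cultured nor treated. At D28 the tissue had an age equivalent of 36.5 dpp, so age and culture cannot be told apart in this contrast. RNA was also measured in testes at 8.5 dpp and at ages from 24.5 to 53.5 dpp, and in tissues cultured for 6, 16 and 22 days (D6, D16, D22). Of these, 8.5 dpp testes and D16 tissues, with 3 libraries each, are compared with D28 below.

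The testis holds seminiferous tubules, in which Sertoli cells nurse the germ cells, and an interstitium with Leydig cells, stromal cells, vessels and macrophages. In the second week after birth of the rat, Sertoli cells still divide, spermatogonia multiply and the first germ cells enter meiosis. Testicular macrophages and the barrier formed by Sertoli cell junctions are known for keeping immune reactions in the tissue low. Because whole tissue was measured, fewer cells of a type and less RNA per cell cannot be told apart in any of the values below.

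Between 12814 and 13075 genes had a value above 0 in the 5 libraries. The lowest 1% of the values above 0 reached up to 0.0266 to 0.0392 FPKM, and the number of reads behind these values is unknown. The 14.5 dpp testes differed from each other by at least 1 on the log2(FPKM + 1) scale at 389 genes. Library 2 of 14.5 dpp held more transcript of the meiotic list (402 against 211 summed FPKM) and of the spermatid list (56.4 against 19.9). Among the D28 tissues, library 1 stood apart in the macrophage list, at 330 summed FPKM against 198 and 209. Where leaving out 1 library changed a list's calls by much, the counts without it are given with the list. The p-values of D28 against 14.5 dpp rest on a spread estimated over the 14.5 dpp, D16, D22 and D28 libraries together. Each cultured library is a pool and each 14.5 dpp library a single testis, so most of that spread comes from pools. Whether it holds for single testes was not tested.

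A gene was called when its adjusted p (limma, Benjamini-Hochberg over all genes tested) was at most 0.05 and the ratio of group medians was at least 2. Of the 11517 genes tested, 1760 (15.3%) were called, 968 higher (8.4%) and 792 lower (6.88%) at D28. The adjusted p alone was passed by 4733 of the 11517, the count to set beside those given for lists below. Outside the study's lists, 1162 of 10918 genes (10.6%) were called. Of these, 567 (5.19%) were higher and 595 (5.45%) were lower in the D28 tissues. The libraries of the 2 groups did not overlap at 1151 of the 1162 genes, beside 6419 of all 11517 genes tested (55.7%). The median log2 fold change of all genes tested was -0.076, with a middle range of -0.389 to 0.289 and a median standard error (SE) of 0.147.

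**Figure D1:**
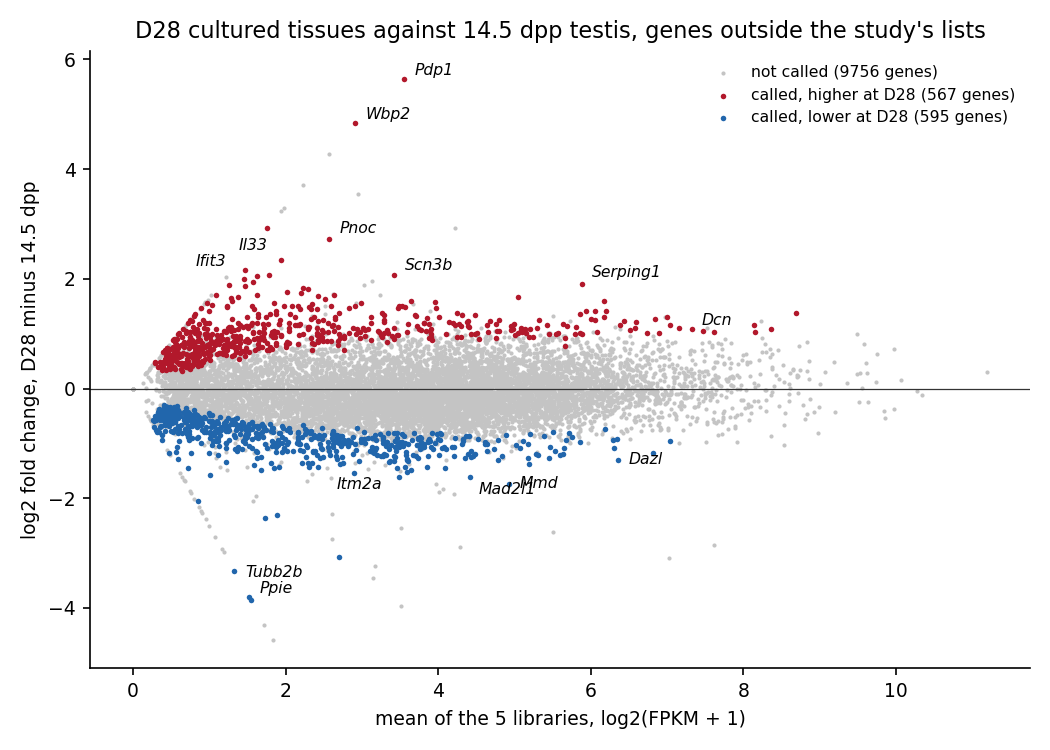
Each point is 1 of the 10918 genes tested outside the study's lists, with its mean over the 5 libraries on the x axis (log2(FPKM + 1)) and the log2 fold change of D28 over 14.5 dpp on the y axis. The 567 genes called higher are red and the 595 called lower are blue, and several of the most extreme points are genes listed at or near 0 in a whole group.

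Among the genes whose libraries did not overlap, the largest rises outside the study's lists held a neuropeptide precursor, an alarm cytokine and several genes induced by interferon. Pnoc, which encodes the precursor of nociceptin, had 1.38 and 0.546 FPKM at 14.5 dpp and 12.8, 10.8 and 11.5 FPKM in D28 libraries 1 to 3. All D28 values were far above both testes (log2 fold change 2.73, SE 0.19, adjusted p = 1.91e-05). Il33, an alarm cytokine that is kept in the nucleus of barrier cells, was at 0.402 and 0.489 FPKM at 14.5 dpp and at 8.07, 6.26 and 4.96 FPKM at D28. Its log2 fold change was 2.34 (SE 0.25, adjusted p = 0.000124), again without overlap.

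Scn3b, a beta subunit of voltage-gated sodium channels, rose from 4.83 and 2.51 FPKM to 13.7, 24.8 and 17.5 FPKM. Rprm, which encodes reprimo, a cell cycle inhibitor downstream of p53, was at 0.124 and 0.532 FPKM and reached 7.47, 3.04 and 3.77 FPKM. The lack of overlap at both genes followed from their choice, and the log2 fold changes were 2.08 (SE 0.25) for Scn3b and 2.06 (SE 0.31) for Rprm. Isg20, an exonuclease induced by interferon, was at 0.395 and 0.516 FPKM against 7.12, 4.72 and 3.96 FPKM (log2 fold change 2.08, SE 0.20). In vivo, means of Isg20 also rose with age, to 11.8 FPKM at 36.5 dpp and 15.6 FPKM at 53.5 dpp. Its D28 mean was lower, at 5.26 FPKM. The olfactory receptor gene Olr1433 was at 0.444 and 0 FPKM against 5.44, 2.63 and 3.68 FPKM (log2 fold change 1.99, adjusted p = 0.0031).

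Gdf15, a stress-induced cytokine of the TGF-beta superfamily, showed a rise carried unequally by the D28 libraries. It was at 0.316 and 0.325 FPKM at 14.5 dpp and at 14.2 FPKM in D28 library 1, beside 1.88 and 1.99 FPKM in the others. Its log2 fold change was 1.94 with an SE of 0.60 (adjusted p = 0.0265), and it lost its call without either 14.5 dpp library. Serping1, the inhibitor of the first complement component, was at 28.8 and 22.8 FPKM against 152, 70.3 and 91.2 FPKM (log2 fold change 1.91, SE 0.33, adjusted p = 0.00169). Library 1 was again the highest. That all D28 values lay above both testes followed from the choice of genes without overlap.

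Further rises were chosen after their values were seen, from called genes whose groups did not overlap. Slc9a2, a sodium-hydrogen exchanger, was at 0.0158 and 0.178 FPKM at 14.5 dpp and at 3.05, 3.30 and 2.83 FPKM at D28. Magea13, of the MAGE family, was at 15.9 and 15.1 FPKM against 42.2, 54.4 and 58.9 FPKM. In vivo, both genes were also above 14.5 dpp at later ages. Means from 24.5 to 53.5 dpp were 36.1 to 50.7 FPKM for Magea13, near its D28 mean of 51.8 FPKM. For Slc9a2 they were 1.26 to 1.83 FPKM, below its D28 mean of 3.06 FPKM. Lack of overlap at both genes followed from that choice.

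**Figure D2:**
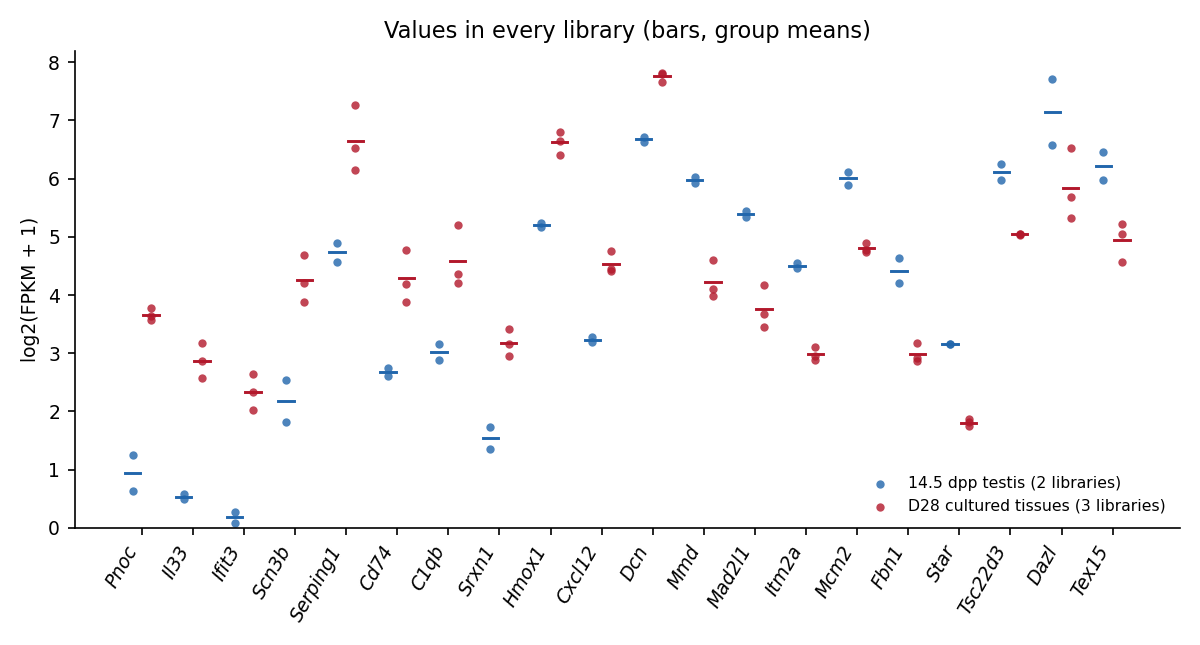
Values of 20 genes outside the study's lists in each of the 5 libraries, on the log2(FPKM + 1) scale, with 14.5 dpp testes in blue, D28 cultured tissues in red and bars at the group means. The D28 points lie above both testes from Pnoc to Dcn and below both testes from Mmd to Tex15.

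Macrophage genes were higher in the D28 tissues. Of the 15 macrophage markers tested outside the study's lists, 8 were called higher and 0 lower, all 15 had a positive log2 fold change and their median was 0.99, beside the -0.076 of all genes tested. C1qb, a chain of the first complement component made by macrophages, stood at 7.89 and 6.37 FPKM at 14.5 dpp and at 35.8, 17.5 and 19.6 FPKM at D28 (log2 fold change 1.57, SE 0.33). Cd68, a lysosomal membrane protein of macrophages, was at 3.00 and 2.42 FPKM against 12.3, 5.58 and 7.03 FPKM (log2 fold change 1.27, SE 0.25).

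Fcer1g, the signalling chain of Fc receptors, was at 8.23 and 7.01 FPKM against 27.2, 14.4 and 16.4 FPKM. Spi1, the transcription factor PU.1 of the myeloid lineage, was at 0.695 and 0.331 FPKM against 3.13, 2.16 and 1.54 FPKM. In each of these 4 genes all D28 libraries lay above both testes and library 1 was the highest. Csf1r, the receptor that macrophages need to survive, was at 1.96 and 1.89 FPKM against 4.39, 2.51 and 2.55 FPKM, which did not pass (log2 fold change 0.48, adjusted p = 0.0644). Without D28 library 1, the number of macrophage genes called higher was again 8.

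In summed FPKM, the 22 macrophage genes found in the file took 85.3 and 80.5 at 14.5 dpp and 330, 198 and 209 at D28. The mean was 172 in the 8.5 dpp testes, from which the explants were cut, and Csf1r did not pass against those testes either (adjusted p = 0.70). Markers of lymphocytes and mast cells were few. Of the 5 tested outside the study's lists, 1 was called higher and 1 lower, the former being Cd4, which rat macrophages also carry. Cd3d, a chain of the T cell receptor complex, was listed at 0 in all 5 libraries.

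Of 12 complement genes tested outside the study's lists, 5 were called higher, 0 lower and the median log2 fold change was 1.13. Beside Serping1 and C1qb these included C2 and C5ar1. C2, a protease of the classical pathway, was at 1.19 and 1.84 FPKM against 6.92, 4.85 and 5.80 FPKM (log2 fold change 1.45, SE 0.21, adjusted p = 0.000599). The receptor C5ar1 was at 0.919 and 0.576 FPKM against 3.64, 2.76 and 2.24 FPKM. Neither gene showed overlap between the groups. C1qa, a partner chain of C1qb, was at 13.6 and 14.2 FPKM against 50.8, 24.4 and 24.2 FPKM, which passed the adjusted p (0.018) and not the ratio of medians. Leaving out D28 library 1 gave 4 complement genes called higher.

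In the antigen presentation list, the genes called were those of class II. Of 11 genes tested, 3 were called higher and 0 lower, with a median log2 fold change of 0.64. Cd74, the chaperone of class II molecules, was at 5.11 and 5.74 FPKM against 26.4, 13.7 and 17.3 FPKM (log2 fold change 1.60, SE 0.37). The class II chains RT1-Da (4.73 and 4.93 FPKM against 17.5, 10.1 and 11.8 FPKM) and RT1-Ba (3.40 and 2.68 FPKM against 15.7, 6.02 and 11.5 FPKM) lay apart in all libraries. The count was 1 without 14.5 dpp library 2 or D28 library 3, 2 without 14.5 dpp library 1 or D28 library 1, and 4 without D28 library 2. Class I genes that were not in the list rose too. RT1-CE6 had a log2 fold change of 1.84 and RT1-CE3 one of 1.76, and both were called higher. Reads of RT1 genes may be split between near-identical copies, so their single values are uncertain. The rise in class II genes went together with the macrophage sum in the D28 libraries, and the part of the macrophage genes in it was not tested.

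Genes of the interferon response were higher as a group than at 14.5 dpp. Interferons are cytokines that signal through STAT and IRF factors, which bind a response element in the promoters of their targets. Of 15 genes tested outside the study's lists, 7 were called higher and 0 lower, all 15 had a positive log2 fold change and the median was 0.76. Ifit3, a cytosolic protein that binds viral RNA, was at 0.213 and 0.0620 FPKM at 14.5 dpp and at 4.07, 5.23 and 3.05 FPKM at D28 (log2 fold change 2.15, SE 0.20, adjusted p = 6.5e-05). The sensor Oasl was at 0.320 and 0.205 FPKM against 3.56, 3.12 and 1.95 FPKM (log2 fold change 1.60, SE 0.19).

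Usp18, which removes the ubiquitin-like ISG15 from proteins, was at 0.109 and 0.0786 FPKM against 1.79, 2.98 and 1.77 FPKM. The RNA sensor Oas1a was at 1.61 and 2.45 FPKM against 8.33, 5.83 and 5.43 FPKM, and the antiviral enzyme Rsad2 at 0.576 and 0.695 FPKM against 3.46, 3.21 and 1.60 FPKM. No D28 value of these genes came down to a 14.5 dpp value. Ifit1, of the same family as Ifit3, was at 5.62 and 5.61 FPKM against 15.1, 0 and 36.8 FPKM, and did not pass. D28 library 1, highest in macrophage genes, was the highest in Oasl, Oas1a and Rsad2 and not in Ifit3 or Usp18. D28 library 1 also had the highest sum of the interferon list, 1198 FPKM against 796 and 1075 FPKM. The sums were 742 and 425 FPKM at 14.5 dpp, and their mean was 1062 FPKM at 8.5 dpp, within the range of the D28 sums. Single genes could differ, as Ifit3 and Oasl had means of 0.215 and 1.42 FPKM at 8.5 dpp, below all their D28 values. Without D28 library 1, 6 genes of the list were called higher.

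Promoters of 3 of the 7 called interferon genes are shown because they held the letters of the response element. RefSeq windows on the rat build GRCr8, from 250 bases before to 50 after each gene's start, were found for 9369 of the 11517 genes tested. The letters GAAA, followed by 2 bases of any kind and again GAAA, were searched on both strands and were in 268 of these windows (2.86%) and in 10 of the 15 windows of the interferon list (66.7%). Below, stretches of 60 bases that end before the gene's start are printed in the direction of the gene, with the element in capitals. In these 3 the letters lie before the start.
Ifit3 (chr1:241527257-241527316, plus strand): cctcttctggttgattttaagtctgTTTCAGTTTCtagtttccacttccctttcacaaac
Oas1a (chr12:41330406-41330465, plus strand): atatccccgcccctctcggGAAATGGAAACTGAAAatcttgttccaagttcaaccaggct
Rsad2 (chr6:48788233-48788292, minus strand): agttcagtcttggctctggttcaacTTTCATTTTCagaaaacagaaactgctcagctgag
Oas1a holds 2 overlapping copies, and the element runs on the opposite strand in Ifit3 and Rsad2. A match is a description of letters and does not show binding of a factor.

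Cytokines and targets of NF-kB, a transcription factor of inflammation, were also mainly higher. Of 21 genes tested, 9 were called higher and 1 lower, with a median log2 fold change of 0.80. After Il33, the largest changes were those of chemokines, which draw leukocytes or hold stem cells in place. Cxcl16 was at 5.71 and 4.43 FPKM against 20.1, 13.2 and 14.4 FPKM (log2 fold change 1.46, SE 0.19), and Cxcl12 at 8.09 and 8.75 FPKM against 26.0, 20.8 and 20.2 FPKM (log2 fold change 1.3, SE 0.20). Ccl3, a chemokine of macrophages, was at 0 and 0.0838 FPKM against 2.02, 0.747 and 0.898 FPKM. All D28 libraries lay above both testes for these 3 genes.

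Other members stayed low. Il1b, a first-line cytokine of inflammation, was at 0.188 and 0.409 FPKM against 0.438, 0.433 and 0.578 FPKM and did not pass (adjusted p = 0.252), and Il1a did not reach the filter. Il18, the 1 member called lower, was at 1.74 and 1.29 FPKM against 0.693, 0.748 and 0.963 FPKM. Bcl3, a partner of NF-kB that was not in the list, was at 0.913 and 1.76 FPKM against 9.45, 5.61 and 6.74 FPKM (log2 fold change 1.82, SE 0.23). Without D28 library 1, 7 genes of the list were called higher, and without 14.5 dpp library 1 there were 6.

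Several groups of stress and metabolism genes were described in the same way. Among 26 antioxidant genes outside the study's lists, 5 were called higher and 0 lower, 22 had a positive log2 fold change and the median was 0.32. Srxn1, which repairs oxidised peroxiredoxins, was at 1.57 and 2.32 FPKM against 6.73, 9.65 and 7.91 FPKM (log2 fold change 1.63, SE 0.19, adjusted p = 0.00021). Hmox1, the enzyme that breaks down haem, was at 35.2 and 36.8 FPKM against 111, 83.7 and 99.5 FPKM (log2 fold change 1.41, SE 0.17). The D28 libraries were close together in these genes and clear of both testes.

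The glutathione transferase Gstp1 was at 30.9 and 52.0 FPKM against 145, 92.0 and 94.8 FPKM, and the peroxidase Gpx1 at 61.9 and 42.0 FPKM against 168, 94.1 and 112 FPKM. Gpx4, which protects membrane lipids, was at 52.5 and 62.4 FPKM against 179, 104 and 130 FPKM. Gclm, a subunit of the enzyme that starts glutathione synthesis, went the other way, at 26.3 and 30.2 FPKM against 16.9, 18.5 and 15.6 FPKM. It passed the adjusted p (0.000957) and not the ratio of medians, so the antioxidant list did not move in 1 direction throughout.

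Of 23 genes of glycolysis and the hypoxia response, 3 were called higher, 0 lower, 12 passed the adjusted p and the median was 0.55. Leaving out D28 library 3 gave 5 called higher, D28 library 2 gave 4 and D28 library 1 gave 2. Pgk1, a glycolytic kinase, was at 19.2 and 18 FPKM against 46.5, 47.2 and 37.3 FPKM (log2 fold change 1.18, SE 0.19). Ankrd37, a target of the hypoxia-inducible factor, was at 1.56 and 0.710 FPKM against 6.01, 3.19 and 2.53 FPKM. The factor subunits Hif1a (adjusted p = 0.274) and Epas1 (adjusted p = 0.149) did not pass. The pyruvate kinase gene Pkm was called higher at low listed levels, 0.533 and 0.998 FPKM against 1.56, 1.65 and 1.87 FPKM. Tpi1, an enzyme that every cell uses, was listed at 0 in all 5 libraries, so a listed 0 may be a failed estimate.

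Among 25 genes of the amino acid and endoplasmic reticulum stress responses, 3 were called higher and 0 lower, with a median of 0.057. Beside Gdf15 these were the transcription factor Cebpb, at 4.75 and 6.17 FPKM against 28.6, 11.6 and 14.4 FPKM, and the mitochondrial folate enzyme Aldh1l2, at 0.465 and 0.375 FPKM against 1.25, 1.05 and 1.13 FPKM. The list's first members, Atf4 and Ddit3, passed the adjusted p with log2 fold changes of 0.32 and 0.39, under the ratio of 2. Of 13 glucocorticoid-responsive genes, Sgk1 was called higher and Tsc22d3 lower. Both calls were lost without 14.5 dpp library 2, and that of Sgk1 also without D28 library 2. Tsc22d3, a mediator of the anti-inflammatory action of glucocorticoids, was at 61.9 and 75 FPKM against 32.1, 31.8 and 32.1 FPKM (log2 fold change -1.07, SE 0.10).

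The lists for lipids, retinoids and the clock held few calls outside the study's lists. Hsd17b7 was the 1 of 24 cholesterol synthesis genes that was called (7.30 and 9.61 FPKM against 3.40, 2.77 and 5.07 FPKM). Of 11 fatty acid synthesis genes, the elongase Elovl5 was called lower, at 14.7 and 33.7 FPKM against 20.4, 0 and 0 FPKM, and lost its call under 11 of the 15 other settings that were planned. Of 16 retinoid genes, Rarb, a retinoic acid receptor that retinoic acid itself induces, was called higher (0.160 and 0.150 FPKM against 0.854, 1.08 and 0.932 FPKM). None of 11 clock genes was called, and 3 passed the adjusted p in limma.

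**Figure D3:**
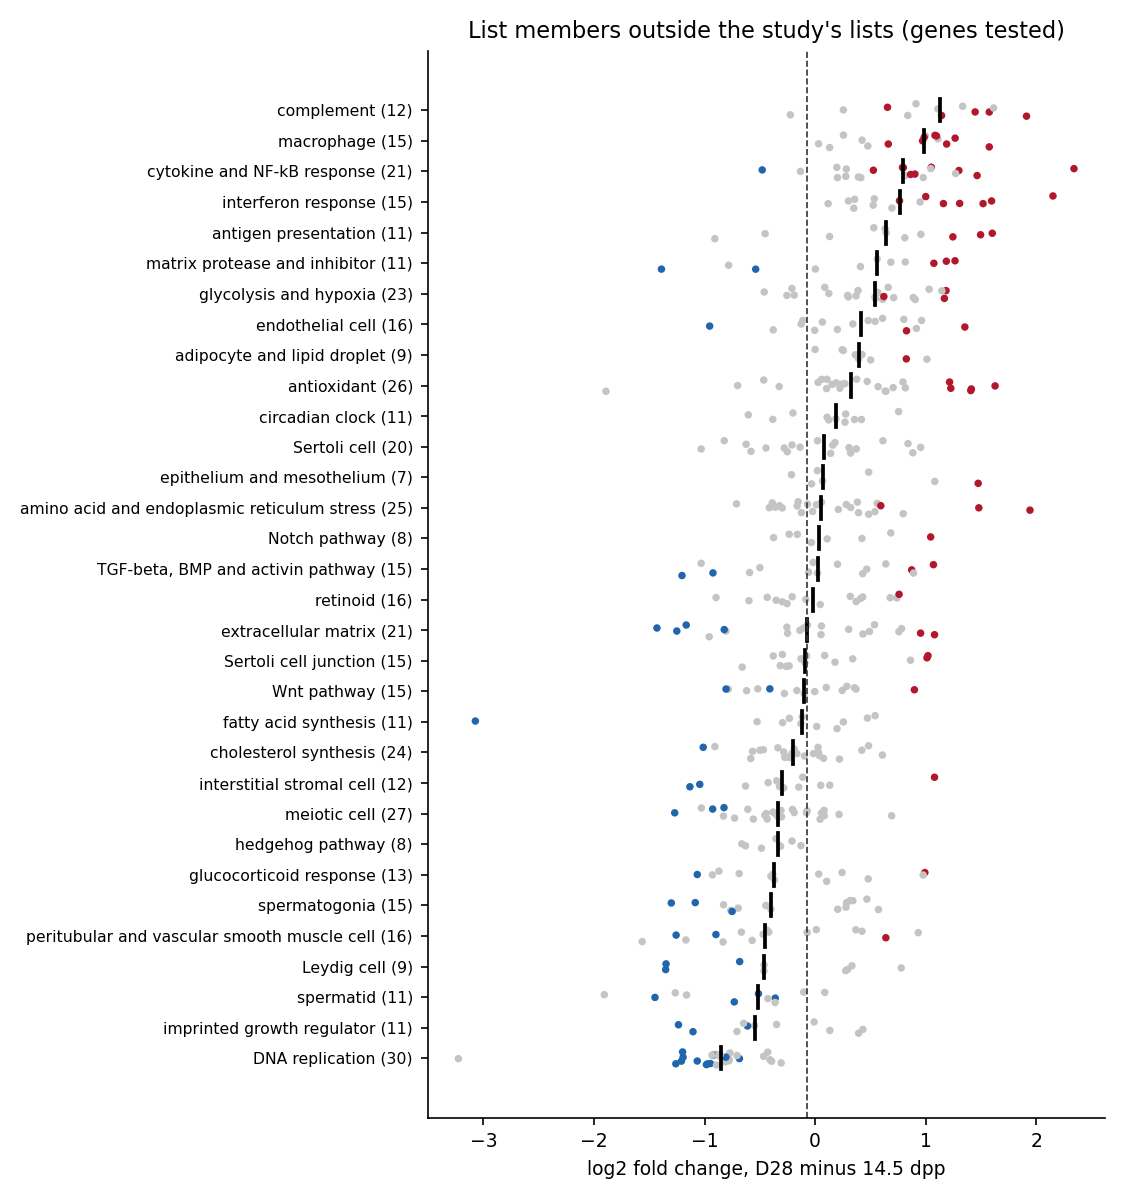
Log2 fold changes of D28 over 14.5 dpp for the members of each list that were tested outside the study's lists, with the number of genes in brackets, for lists with at least 7 such genes. Points are genes (red called higher, blue called lower, grey not called), black bars are list medians and the dashed line is the median of all genes tested, -0.076.

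DNA replication genes were lower in the D28 tissues than at 14.5 dpp. Of 30 genes tested outside the study's lists, 0 were called higher and 11 lower, all 30 had a negative log2 fold change, 27 passed the adjusted p and the median was -0.85. The MCM proteins form the helicase that opens DNA at replication origins. Mcm2 stood at 68.6 and 58.1 FPKM at 14.5 dpp and at 26.3, 25.8 and 28.8 FPKM at D28 (log2 fold change -1.20, SE 0.13, adjusted p = 0.00017). Mcm4 was at 38.5 and 33.3 FPKM against 14, 16.2 and 15.2 FPKM (log2 fold change -1.19, SE 0.12).

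Mcm3 was at 34.3 and 32.1 FPKM against 17.9, 19.8 and 19.1 FPKM, which passed the adjusted p (0.000201) and stayed under the ratio of 2. The loading factor Mcm10 was at 14.3 and 13.9 FPKM against 4.22, 5.91 and 6.74 FPKM. Pold1, the catalytic subunit of polymerase delta, was more scattered, at 11.2 and 6.00 FPKM against 1.99, 1.83 and 5.78 FPKM. Cdc45, another part of the helicase, was at 0.958 and 0.898 FPKM and was listed at 0 in all D28 libraries. The 36 replication genes found in the file summed to 1010 and 860 FPKM at 14.5 dpp, to 433, 475 and 477 FPKM at D28 and to a mean of 1444 FPKM at 8.5 dpp. In vivo at 36.5 dpp, the age equivalent of D28, the mean sum was 483 FPKM, near the D28 sums. Single genes could differ, as Mcm2 was at 4.46, 4.16 and 2.79 FPKM at that age, below its D28 values. Whether the fall came with age or with culture was not tested. The number called lower ranged from 9 to 14 when each of the 5 libraries was left out.

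E2F factors switch on replication genes at the start of S phase, and the letters of their element were also looked for. TTTCCCGC or TTTGGCGC, on both strands, was in 272 of the 9369 promoter windows (2.9%) and in 12 of the 28 windows of the replication list (42.9%). Here and for the interferon list, the shares count members whether called or not. They describe the lists and not the change at D28. The E2F forms did not overlap each other or the interferon element in any window. The stretches shown are those of the called genes with the letters before the start, again with the element in capitals and on GRCr8.
Gins1 (chr3:160184860-160184919, plus strand): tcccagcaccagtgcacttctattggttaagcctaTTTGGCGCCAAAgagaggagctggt
Pola1 (chrX:62342494-62342553, minus strand): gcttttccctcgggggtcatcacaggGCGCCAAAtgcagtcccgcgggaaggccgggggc
In Gins1 the letters read the same on both strands and give 2 overlapping matches. Gins1, a part of the GINS complex of the helicase, was at 10.4 and 8.73 FPKM against 4.28, 3.84 and 4.95 FPKM, and Pola1, the catalytic subunit of polymerase alpha, at 4.03 and 2.73 FPKM against 1.31, 1.67 and 2.17 FPKM. Both were lower in all D28 libraries.

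The largest falls whose libraries did not overlap held genes of cell division too. Mad2l1, a checkpoint protein of the mitotic spindle, was at 42.5 and 39.5 FPKM at 14.5 dpp and at 9.93, 17.1 and 11.8 FPKM at D28 (log2 fold change -1.62, SE 0.20, adjusted p = 0.00029). Other division genes, chosen after their values were seen and only from genes without overlap, lay in the same range. The kinetochore genes Cenpi (6.19 and 5.08 FPKM against 1.21, 1.76 and 1.31 FPKM), Cenpq (8.21 and 9.23 FPKM against 1.74, 3.64 and 2.66 FPKM) and Ska1 (10.3 and 11 FPKM against 2.52, 3.56 and 4.59 FPKM) did not overlap between the groups. Plk4, the kinase that starts centriole duplication, was at 23.7 and 27.0 FPKM against 6.58, 11.2 and 8.97 FPKM, and Sgo2, a protector of centromeric cohesion, at 28.9 and 31.3 FPKM against 8.05, 12.5 and 11.1 FPKM.

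Mmd, a membrane protein of the progestin and adipoQ receptor family, was at 64.0 and 59.8 FPKM against 14.9, 23.3 and 16.1 FPKM (log2 fold change -1.74, SE 0.17, adjusted p = 9.33e-05). Itm2a, a membrane protein known from cartilage and T cells, was at 21.1 and 22.3 FPKM against 6.40, 7.65 and 6.75 FPKM (log2 fold change -1.52, SE 0.14). Both were chosen from genes without overlap, and the margin between the groups was wide. Nr4a1, an immediate early nuclear receptor, was at 14.1 and 12.1 FPKM against 4.76, 3.59 and 3.28 FPKM, with a larger SE of 0.46 (log2 fold change -1.54, adjusted p = 0.0231), and kept its call without D28 library 1 but lost it without any other library.

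Ruvbl2, an ATPase of chromatin remodelling complexes, was at 7.41 and 10.1 FPKM against 1.28, 0.924 and 0.712 FPKM (log2 fold change -2.30, SE 0.17). The cofactor of protein folding Dnajc2 was at 22.5 and 19.4 FPKM against 3.59, 12.2 and 5.00 FPKM. Dck, a kinase that salvages deoxynucleosides, was at 3.18 and 2.57 FPKM against 0, 0 and 1.16 FPKM. The D28 libraries disagreed among themselves in the last 2 genes.

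Germ cell genes outside the study's lists were lower or not called, and this rested on which 14.5 dpp testis they were set against. Of 15 spermatogonial genes outside the study's lists, 0 were called higher and 3 lower, with a median of -0.40. Dazl, an RNA-binding protein of germ cells, was at 94.9 and 208 FPKM at 14.5 dpp and at 39.1, 91.0 and 50.3 FPKM at D28 (log2 fold change -1.3, SE 0.39, adjusted p = 0.0248). The values of the groups came close, at 91.0 against 94.9 FPKM. Ddx4, a germ cell helicase, was at 10.8 and 16.2 FPKM against 4.52, 7.46 and 5.49 FPKM, and Lin28a, of undifferentiated spermatogonia, at 1.95 and 2.01 FPKM against 0.567, 1.02 and 0.753 FPKM. Zbtb16 and Gfra1, markers of undifferentiated spermatogonia, had log2 fold changes of -0.40 and 0.20 and were not called. Without 14.5 dpp library 2 only 1 gene of the list was called lower.

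Of 27 meiotic genes, 0 were called higher and 3 lower, with a median of -0.34. Tex15, needed for meiotic recombination and for silencing of transposons, was at 61.7 and 87.2 FPKM against 22.9, 36.1 and 32.1 FPKM (log2 fold change -1.27, SE 0.20, adjusted p = 0.00115). The cohesin Smc1b was at 6.50 and 17.2 FPKM against 3.53, 6.78 and 5.58 FPKM, so that the groups overlapped. The cyclin Ccna1 was at 1.84 and 1.94 FPKM against 1.02, 0.372 and 0.564 FPKM. Sycp3, of the synaptonemal complex, was at 6.17 and 38.4 FPKM against 8.96, 19.6 and 9.97 FPKM, with the D28 values between the testes. Without 14.5 dpp library 2 the meiotic counts were 4 higher and 0 lower, and without library 1 they were 0 higher and 10 lower.

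Spermatid genes were near the floor in both groups. Of 11 tested, 4 were called lower and 0 higher (median -0.51), and the count was 0 without 14.5 dpp library 2, 7 without library 1, 1 without D28 library 2 and 2 without D28 library 3. Oaz3, an antizyme of haploid cells, was at 0.815 and 4.03 FPKM against 0.153, 0 and 0.177 FPKM, beside a mean of 1011 FPKM at 36.5 dpp in vivo. Akap4, of the sperm fibrous sheath, was at 0.312 and 0.979 FPKM against 0.301, 0 and 0.107 FPKM. Prm1, a protamine, was listed at 0 in all 5 libraries.

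**Figure D4:**
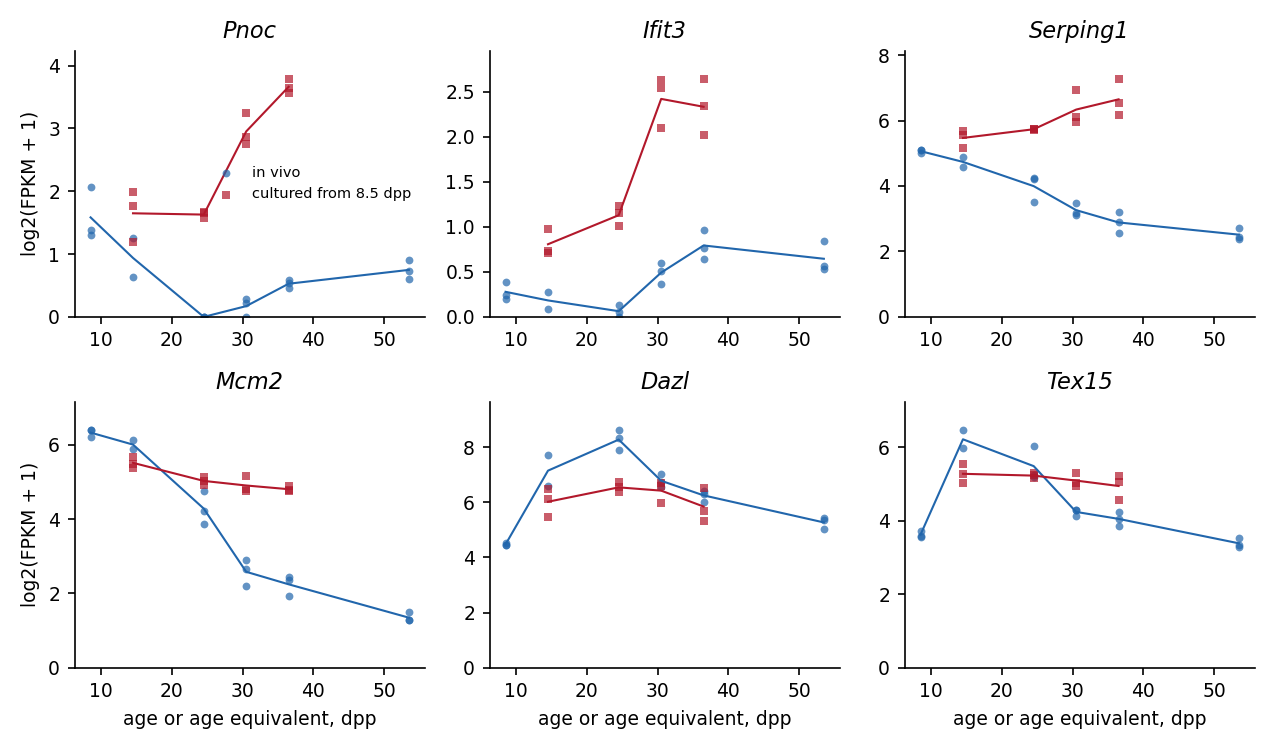
Pnoc, Ifit3, Serping1, Mcm2, Dazl and Tex15 on the log2(FPKM + 1) scale against age, or age equivalent for the cultures, with testes in vivo in blue and cultured tissues in red. Points are libraries and lines join group means. Pnoc, Ifit3 and Serping1 at D28 lie above every age in vivo, and Dazl and Tex15 at D28 lie below 14.5 dpp and above 8.5 dpp.

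Among somatic cells of the tubule, none of 20 Sertoli cell genes tested outside the study's lists was called (median 0.081). The adjusted p in limma was passed by 10 of the 20, beside 4733 of all 11517 genes tested. Without 14.5 dpp library 2, 2 were called higher, and without any other single library at most 1 was called in each direction. Wt1, a transcription factor of Sertoli cells, was at 116 and 144 FPKM against 132, 189 and 166 FPKM, and Sox9 at 56.5 and 75.3 FPKM against 47.2, 50.7 and 45.2 FPKM. The defining markers were thus present in all 5 libraries. Inha, the inhibin alpha subunit, was at 547 and 590 FPKM against 315, 215 and 315 FPKM (log2 fold change -1.03, adjusted p = 0.00163) with a ratio of medians under 2. Fshr, the receptor for follicle-stimulating hormone, went up to 13.4, 16.3 and 17.4 FPKM from 10.1 and 6.29 FPKM, also under that ratio.

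Of 15 Sertoli cell junction genes, 2 were called higher and 0 lower (median -0.093). Nectin2, an adhesion molecule between Sertoli cells and germ cells, was at 77.7 and 76.6 FPKM against 165, 152 and 156 FPKM (log2 fold change 1.02, SE 0.09, adjusted p = 5.3e-05). F11r, the junctional adhesion molecule A, was at 71.2 and 67.5 FPKM against 113, 167 and 148 FPKM. Both were tight within groups and apart between them, although their ratios were close to 2, and Nectin2 lost its call without D28 library 1 and F11r without D28 library 2. The tight junction genes Ocln (adjusted p = 0.0867) and Cldn11 (adjusted p = 0.203) did not pass.

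Of 5 genes of the supporting cells of the ovary, Rspo1 and Fst were called higher and 0 lower. Rspo1, a ligand that strengthens Wnt signalling, was at 1.07 and 1.23 FPKM against 3.90, 2.22 and 3.05 FPKM (log2 fold change 0.90, SE 0.17). Fst, the activin antagonist follistatin, was at 0.530 and 0.296 FPKM against 1.22, 2.33 and 1.32 FPKM. No D28 value reached down to the testes. At D28, Fst was lower than in the 8.5 dpp testes (mean 6.67 FPKM, log2 fold change -1.56, adjusted p = 0.00056).

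Of 9 Leydig cell genes outside the study's lists, 0 were called higher and 3 lower (median -0.46). Star, which brings cholesterol into the mitochondria for steroid synthesis, was at 7.96 and 7.93 FPKM against 2.52, 2.65 and 2.35 FPKM (log2 fold change -1.35, SE 0.20, adjusted p = 0.000676). Srd5a1, a steroid 5-alpha reductase of immature Leydig cells, was at 5.69 and 9.95 FPKM against 2.83, 2.15 and 2.15 FPKM (log2 fold change -1.35, SE 0.19). The receptor for luteinising hormone, Lhcgr, was at 2.78 and 5.99 FPKM against 2.00, 2.48 and 2.15 FPKM, and its call (adjusted p = 0.0464) was lost without any library but 14.5 dpp library 1. Without each library in turn, 2 or 3 Leydig cell genes were called lower.

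Stromal, muscle and vascular genes moved one by one. Of 12 stromal genes, Dcn, the matrix proteoglycan decorin, was called higher (98.3 and 104 FPKM against 224, 201 and 221 FPKM, log2 fold change 1.08, SE 0.17), while Igf1 and Dpt were called lower. No more than 1 stromal gene was called lower when any 1 of the 5 libraries was left out, and 0 without 14.5 dpp library 2. Pdgfra, the receptor that marks stromal cells, was at 45.2 and 40.6 FPKM against 44.5, 43.4 and 45.4 FPKM. Of 16 smooth muscle genes, Cald1, the actin-binding caldesmon, was lower at 22.3, 27.2 and 24.5 FPKM against 67.5 and 53.7 FPKM (log2 fold change -1.26, SE 0.15). The cofactor Myocd was lower as well, at 0.338, 0.433 and 0.393 FPKM against 2.20 and 1.09 FPKM, and Synpo2 was called higher. The number called lower was 2, but it was 6 without 14.5 dpp library 2 and 4 without D28 library 1.

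Of 16 endothelial genes, 2 were called higher and 1 lower, with a median of 0.41. The number called higher was 5 without 14.5 dpp library 1, 4 without D28 library 2 and 3 without D28 library 3. Plvap, of the diaphragms of fenestrated vessels, was at 1.18 and 0.999 FPKM against 5.75, 3.08 and 4.51 FPKM (log2 fold change 1.35, SE 0.21), and Flt4, a receptor of lymphatic vessels, at 0.121 and 0.202 FPKM against 1.53, 0.896 and 0.821 FPKM. Emcn, a sialomucin of veins and capillaries, was lower at 0.325, 0.651 and 0.985 FPKM against 2.12 and 2.20 FPKM. Cdh5, the cadherin of all endothelium, passed the adjusted p (0.0242) at 30.8, 18.8 and 25.3 FPKM against 15.2 and 12.2 FPKM, under the ratio of 2. D28 library 1 had the highest endothelial sum, 249 FPKM against 138 and 170.

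Of 3 erythroid genes tested outside the study's lists, Alas2, of haem synthesis, was called higher and Ahsp, a chaperone of haemoglobin, lower. The call of Alas2 was lost without either 14.5 dpp library and without D28 library 3. The summed erythroid list, which includes the haemoglobin genes of the study's lists, fell from 764 and 1034 FPKM to 8.97, 8.06 and 10.8 FPKM. Of 7 genes of epithelium and mesothelium, Krt19 was called higher (listed at 0 in both testes and at 1.14, 1.82 and 2.56 FPKM at D28). Of 9 adipocyte genes, the lipase Lpl was called higher at 5.59, 4.41 and 2.92 FPKM against 2.67 and 1.34 FPKM, a call lost without 14.5 dpp library 2 or D28 library 1.

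**Figure D5:**
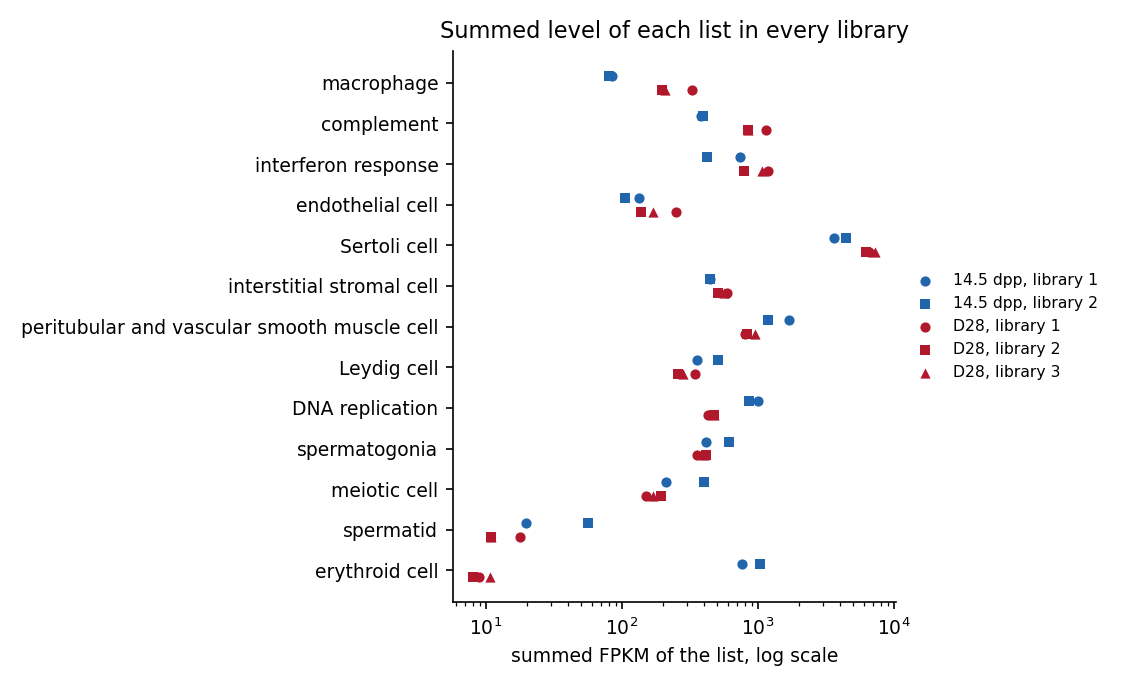
Summed FPKM of the members found in the file for 13 lists, on a log scale, with 14.5 dpp libraries in blue and D28 libraries in red and a marker shape for each library. Macrophage, complement and Sertoli cell sums are higher in all D28 libraries, DNA replication and erythroid sums are lower, and D28 library 1 has the highest macrophage and endothelial sums.

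Extracellular matrix genes were called in both directions. Of 21 genes, 2 were higher, 4 lower and the median was -0.070. Fbn1, the microfibril protein fibrillin, was at 23.9 and 17.4 FPKM against 6.29, 6.57 and 8.09 FPKM (log2 fold change -1.43, SE 0.18, adjusted p = 0.000356), and the proteoglycan Vcan at 5.08 and 3.72 FPKM against 1.25, 1.35 and 1.15 FPKM (log2 fold change -1.25, SE 0.16). Postn, periostin, was at 10.7 and 17.1 FPKM against 5.41, 5.05 and 6.05 FPKM, and Col14a1 was lower too. Beside Dcn, the laminin chain Lama5 was higher. Col1a1, the main fibrillar collagen, was at 87.3 and 96.8 FPKM against 93.9, 74.4 and 83.2 FPKM, while its partner Col1a2 was listed at 0 in all 5 libraries.

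Of 11 matrix proteases and inhibitors, 3 were called higher and 2 lower (median 0.56). The receptor of urokinase, Plaur, was at 0.553 and 0.364 FPKM against 3.31, 1.99 and 2.32 FPKM (log2 fold change 1.26, SE 0.16). The inhibitor of metalloproteinases Timp1 was at 11.1 and 9.31 FPKM against 34.5, 18 and 23.3 FPKM. Adamts5, a protease that cleaves proteoglycans, was lower at 0.686, 1.04 and 1.44 FPKM against 5.06 and 3.68 FPKM (log2 fold change -1.39, SE 0.23). Timp4, related to Timp1, was also lower, at 0.460, 0.174 and 0.276 FPKM against 0.883 and 0.887 FPKM.

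Growth and signalling lists held scattered calls. Of 11 imprinted growth regulators outside the study's lists, 0 were called higher and 3 lower (median -0.55). Grb10, an adaptor that dampens insulin and IGF signalling, was at 34.4 and 37.4 FPKM against 13.2, 15.7 and 15.2 FPKM (log2 fold change -1.24, SE 0.13). Cdkn1c, a cell cycle inhibitor, was at 13 and 12.7 FPKM against 8.59, 4.29 and 4.32 FPKM. Igf2r, a receptor that clears IGF2, passed the adjusted p in the other direction, at 29.8, 30.1 and 30.0 FPKM against 23.0 and 22.2 FPKM.

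Of 8 hedgehog genes outside the study's lists none was called and 4 passed the adjusted p in limma. All 8 had a negative log2 fold change (median -0.34), and of all 10 hedgehog genes tested, 2 were called lower. The ligand of Sertoli cells, Dhh, was at 113 and 109 FPKM against 106, 89.0 and 93.8 FPKM, and the target Gli1 at 15.1 and 12.8 FPKM against 10.1, 7.84 and 8.11 FPKM. Of 8 Notch genes, the target Hey1 was called higher, though not without 14.5 dpp library 2 (1.53 and 1.16 FPKM against 5.45, 2.99 and 3.36 FPKM). Of 15 Wnt genes, Rspo1 was called higher, and the inhibitor Sfrp2 and the factor Lef1 lower, with 1 lower without either 14.5 dpp library. Of 15 genes of the TGF-beta, BMP and activin pathways, Bambi and Fst were called higher and 2 genes lower, among them the ligand Bmp4. With D28 library 3 left out 5 were higher, with D28 library 2 left out 4, and the number called lower was 1 without D28 library 2 or 14.5 dpp library 1. Bambi lost its call without 14.5 dpp library 2. Bambi, a decoy receptor, was at 23.2 and 18.8 FPKM against 45.3, 40.3 and 49.6 FPKM.

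The explants started as 8.5 dpp testes, so D28 was also compared with those 3 libraries, in a fit of its own. Of 11339 genes tested there, 2681 (23.6%) were called. Both comparisons share the D28 libraries, so their values are given side by side without a test of likeness. Of the 1162 genes called against 14.5 dpp outside the study's lists, 581 were called in the same direction against 8.5 dpp (331 higher, 250 lower). A further 543 were not called there. The other 38 were called in opposite directions, 34 of them lower than at 14.5 dpp and higher than at 8.5 dpp.

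Dazl was at 21.9, 20.6 and 21.1 FPKM in the 8.5 dpp testes, below its D28 values (log2 fold change 1.37, adjusted p = 0.0063). Tex15 was at 10.8, 11.1 and 12.1 FPKM (log2 fold change 1.32, adjusted p = 0.00079). Rhox7, a homeobox gene of the reproductive cluster, was at 2.73, 1.65 and 1.24 FPKM at 8.5 dpp, at 15.6 and 18.1 FPKM at 14.5 dpp and at 5.30, 5.12 and 8.01 FPKM at D28. Pnma5, of the paraneoplastic antigen family, and Samd5, a protein with a sterile alpha motif, had D28 values between those of 14.5 dpp (29.0 and 42.8 FPKM for Pnma5, 14.4 and 18.9 FPKM for Samd5) and of 8.5 dpp (means 4.11 and 2.12 FPKM). At D28 they were at 12.3, 16.5 and 14.2 FPKM and at 6.23, 8.63 and 6.18 FPKM.

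Angptl8, a secreted regulator of lipoprotein lipase, ran the other way. It was at 24.4, 24.3 and 25.4 FPKM at 8.5 dpp, at 0.481 and 0.135 FPKM at 14.5 dpp and at 10.1, 1.72 and 1.31 FPKM at D28. D28 library 1 was far above the others, and the call against 14.5 dpp was lost without either testis. Taking all ages in vivo, 420 of the 567 genes called higher had a D28 median above every in vivo group median, and 151 of the 595 called lower had one below every such median. These genes were chosen for D28 values away from 14.5 dpp, and the shares over all genes tested were not counted. An excess can therefore not be read from these counts.

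Of the 1162 genes, 590 were already called at D16 against 14.5 dpp and 572 were not. The study listed only genes that differed at every culture time it kept for comparison with its control. A gene outside its lists may still have passed some of those comparisons. Leaving the listed genes out removed genes that had already changed at D16. The split was thus shaped by the choice of genes, and no timing is read from it. D28 and D16 were set against each other in the same fit. There, 65 of all 11517 genes passed an adjusted p of 0.05 (0.564%), 32 of them among the 1162. This count rested on single libraries, since it was 744 without D28 library 2, 28 without library 1 and 32 without library 3. Pnoc was one of those that passed, at means of 2.09 FPKM at D16 and 11.7 FPKM at D28 (log2 difference 2.03, SE 0.17, adjusted p = 0.00098).

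Among the genes called at D28 and not at D16, Septin10, of the septin cytoskeleton, was at 7.58, 6.82 and 7.96 FPKM at D28 and at a mean of 22.9 FPKM at D16 (log2 difference -1.50, SE 0.16, adjusted p = 0.004). Postn fell from a mean of 16.4 FPKM at D16 (log2 difference -1.41, adjusted p = 0.031). Adh1c, an alcohol dehydrogenase, went from 1.29 FPKM at D16 to 6.18, 4.18 and 4.76 FPKM (log2 difference 1.42, adjusted p = 0.019), and Bcl3 from 2.15 FPKM (log2 difference 1.38, adjusted p = 0.022). Ruvbl2 had a mean of 5.04 FPKM at D16 and of 0.974 FPKM at D28 (log2 difference -1.61, adjusted p = 0.002).

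Some of the most extreme values came from genes that were listed at or near 0 in whole libraries. Tubb2b, a beta tubulin with close copies, was at 11.3 and 7.14 FPKM at 14.5 dpp, at 6.55, 5.66 and 6.03 FPKM at D16 and was listed at 0 in all D22 and D28 libraries. Ppie, a peptidyl-prolyl isomerase, was at 11.9 and 13.9 FPKM and was listed at 0 at D28, but it was also listed at 0 in single libraries of D16 and 8.5 dpp. Wbp2, a transcription cofactor, was listed at 0 in both 14.5 dpp testes and at 33.9, 33.1 and 18.8 FPKM at D28, and switched between 0 and 17.7 FPKM among the D22 libraries.

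Pdp1, the phosphatase that activates pyruvate dehydrogenase, behaved likewise, at 0.0999 and 0.143 FPKM against 47.1, 57.4 and 61.8 FPKM, and at 64.8, 0.184 and 62.2 FPKM in D22 libraries. The genes with the identifiers 360231 and 408248, for which no symbol was found, were listed at 0 in a whole group as well. Tars1, a threonyl-tRNA synthetase, was at 9.26 and 6.55 FPKM against 0, 4.06 and 0 FPKM, and Tm2d3 at 4.08 and 2.49 FPKM against 0, 0.0607 and 0 FPKM. In all, 208 of the 11517 genes tested (1.81%) were under 0.5 FPKM in 1 library and at 5 FPKM or more in another of the same group. They made up 11 of the 1162 called genes (0.947%), but 3 of the 12 largest rises and 4 of the 12 largest falls. Ruvbl2 and Dck are among them. The text gives no fold change for a gene listed at 0 in a whole group, although the plot of fold change by level shows fitted values of such genes.

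The most abundant transcripts at D28 outside the study's lists did not pass. Tmsb4x, the actin-binding thymosin beta 4, was at 2499 and 1717 FPKM at 14.5 dpp and at 3277, 2018 and 2515 FPKM at D28 (adjusted p = 0.295). Tmsb10 was at 745 and 746 FPKM against 1951, 907 and 1033 FPKM (log2 fold change 0.71, SE 0.27, adjusted p = 0.0622), Actb had an adjusted p of 0.372 and Rplp0 one of 0.825. The groups overlapped at Tmsb4x and lay apart at Tmsb10.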

How the data were processed

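RNA of whole testes and cultured explants was sequenced as poly(A) RNA from stranded libraries with single reads. Per the study's methods, the authors aligned the reads to the rat build rn6 with STAR 2.5.2a, quantified RefSeq transcripts with StringTie and deposited FPKM values scaled with Ballgown, 1 column per library. The strand setting of the quantification is not given in the sources used here, and near-identical copies may share reads. Read counts were not used, so the depth is unknown.

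Values were tested as log2(FPKM + 1) with limma 3.58.1 in R 4.3.3, in a fit of 14.5 dpp, D16, D22 and D28 libraries (8.5 dpp and D28 only for that contrast), and fold changes on this scale understate those of low genes. Genes needed a group median of at least 0.5 FPKM. A call needed an adjusted p of at most 0.05 and a ratio of medians of at least 2. On simulated data with 11517 genes, of which 200 were shifted by 2 on the log2 scale, 192.9 shifted and 4.7 other genes were called on average, for D28 against 14.5 dpp. The simulated noise was normal, without switching to 0, and genes of low level were not shifted. That shift is larger than most changes called outside the study's lists, so recovery of smaller changes is not described.

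Named genes were the 12 largest non-overlapping rises and falls, up to 4 called genes a direction and the first 2 of each list, 6 genes called in opposite directions against 14.5 and 8.5 dpp, 6 called at D28 and not at D16 with the largest D28 against D16 difference, and the 4 most abundant. Other names were chosen after their values were seen. The 35 lists held 761 entries, of which 50 had no match. The members and lists were chosen with earlier results of these data known. Groups and replicates came from the labels. Some named genes are not reported here.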

Additional observations from a re-analysis of the deposited data

Results flagged for a closer look

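The 6 genes below were called at D28 and not at D16 against 14.5 dpp, and their difference between D28 and D16 passed its own test in limma. Tubb2b was listed at 0 in all D28 libraries and at 6.55, 5.66 and 6.03 FPKM at D16, so no difference is given for it. Ruvbl2 had a log2 difference of -1.615 and Septin10 one of -1.501. The log2 difference of Postn was -1.406. Adh1c was higher at D28 by 1.417 and Bcl3 by 1.381. The causes were not tested.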

How the results depend on the processing

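With an absolute log2 fold change of at least 1 in place of the ratio of medians, 1039 genes were called at D28 against 14.5 dpp, and 453 outside the study's lists (263 higher, 190 lower). Against 8.5 dpp the same rule gave 1784 genes, 1350 of them outside the lists (687 higher, 663 lower). For D28 against D16, the replicate block gave 32 genes, and leaving out 1 library gave 28 to 744. The cause was not tested. The counts of called genes at D28 against 14.5 dpp stayed within 1.5 times under the other settings, with 972 to 1299 outside the lists under other filters, 1128 with the replicate block, 1119 with median centring, 840 in a fit of both groups alone, 981 with the F test, 1076 to 1243 without 1 library and 1152 without the genes that switch, a setting chosen after seeing the data. Same-numbered libraries of 14.5 dpp and D28 correlated at 0.108 and 0.0921, so the numbers were not taken as pairs. For 172 named genes, 2494 of 2734 comparisons kept direction and side of the threshold, 225 lost the call, 15 gained it and none reversed. Leaving out a 14.5 dpp library leaves 1 testis, whose spread is assumed to equal that of the other groups.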
